A study of Mus musculus with 16 samples.

Results

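The genes described here encode integrins, cadherins and the proteins that join them to actin, 41 genes chosen by name, with every probe whose symbol on the array or in the current annotation is one of theirs. A probe was found for 34 of the 41, with 61 probes in all among 25697 on the array, and 29 had a probe bright enough to test, among 10438 genes tested. No probe was named for Itga8, Itga10, Ptk2, Flna, Flnc, Tns1 or Tns3, and the probes of Itga2, Itga4, Itga9, Itgb8 and Lpp were too dim to test, so these 12 genes are named only. Values are log2 normalized intensities of 1 probe per gene, the tested probe with the highest mean, and they are compared between conditions, not between genes.

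The RNA came from trabecular osteoblasts (TOs) of C57BL/6 fetal mice, isolated 1 day before birth from Pthrp-/- animals, which lack parathyroid hormone-related protein, or from their Pthrp+/+ littermates. Cells on microcarriers were kept for 6 days in a rotating vessel that simulates weightlessness (0g) or at 1g, and were left untreated, with a daily change of medium, or given PTHrP1-36 peptide at 10 nM for 2 h per day before fresh medium. Each of the 8 conditions had 2 arrays, giving 16 Illumina Mouse Ref-8 v2.0 arrays over both genotypes. By the methods the 1g cells grew in agarose-coated plasticware, so gravity, rotation and vessel cannot be told apart, and the labels give both tibia and femur as the source bone.

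Integrins are pairs of an alpha and a beta subunit that span the membrane and bind collagen, laminin, fibronectin or vitronectin outside the cell. Talin and kindlin switch them on, and vinculin, paxillin, the complex of integrin-linked kinase, PINCH and parvin, and alpha-actinin tie them to actin at focal adhesions, where load on the matrix is passed to the cytoskeleton. Cadherins join cell to cell, and in osteoblasts N-cadherin (Cdh2) and cadherin-11 (Cdh11) are the main ones.

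Detected probes numbered 12161 to 13560 per array, and the correlation between arrays of the same condition was 0.9891 to 0.9971. Both low ends fell in untreated Pthrp-/- TOs at 0g, where replicate 1 had 12161 detected probes and the highest level at which detection begins, 5.057. The untreated 0g values of Pthrp-/- TOs given below rest on this pair. By the methods the 2 arrays of a condition came from duplicate experiments, and the sources used here do not say whether these used separate animals, so p-values measure the spread between the duplicates only. Pthlh, the gene for PTHrP, had 0 probes among those named, so the genotype could not be checked on the arrays. Of 8 osteoblast markers tested, Sp7, Col1a1 and Col1a2 were detected in both genotypes, while Ibsp (bone sialoprotein) was not detected on any Pthrp-/- array, treated or untreated. In untreated Pthrp-/- against Pthrp+/+ TOs at 1g, limma called 0 of the 8 higher (all genes: 30.5%) and 5 lower (all genes: 22%) at an adjusted p under 0.05. Of 14 macrophage markers tested, all 14 were detected on both untreated Pthrp+/+ arrays at 1g, with summed intensities of 94920 to 97330 there, 58160 to 59150 at 0g and 469.7 to 722.3 on the Pthrp-/- arrays, where 8 to 10 of the 14, Adgre1, C1qa and C1qb among them, were not detected on either array of a condition. Summed intensities, here and below, add normalized values on the linear scale and count undetected genes at background level. In untreated Pthrp+/+ TOs at 1g, Lyz2 and Laptm5 weighed most, with mean log2 levels of 15.03 and 14.42. In bulk samples such as these, fewer cells of a type and less RNA per cell cannot be told apart. The arrays labelled 0g and 1g also differed in opposite ways in the 2 genotypes: over all 10438 genes, the untreated 0g effects of Pthrp+/+ and Pthrp-/- TOs, which share no array, correlated at -0.36, and the treated ones at -0.263. Of 180 genes over 2-fold higher at 0g in untreated Pthrp+/+ TOs, 29 were higher on the Pthrp-/- arrays labelled 0g. Genotype differences of members over 2-fold at 1g are therefore also given with the labelled 0g arrays in place of the 1g arrays, or as a mean over both.

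Pthrp-/- TOs at 1g had more RNA for T-cadherin (Cdh13), the laminin receptor subunit Itga3, Cd44 and the beta subunits Itgb1, Itgb5 and Itgb7, and less for the collagen receptor subunits Itga1 and Itga11 and the laminin receptor subunit Itga6. In untreated TOs at 1g, 11 of the 29 members were higher in Pthrp-/- than in Pthrp+/+ TOs (all genes: 30.5% higher) and 5 were lower (all genes: 22%) at an adjusted p under 0.05 from limma. The shares of the members, 37.9% and 17.2%, were near those of all genes, and their median log2 difference of 0.11 was near the 0.12 of all genes. By more than 2-fold at an unadjusted p under 0.05, 6 members were higher (all genes: 7.34%) and 2 were lower (all genes: 10.3%). Cyclic loess normalization moved the median of all genes from 0.12 to -0.01 and the share of higher genes among all calls from 58.1% to 44.5%, and with it 8 members were lower.

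**Figure D1:**
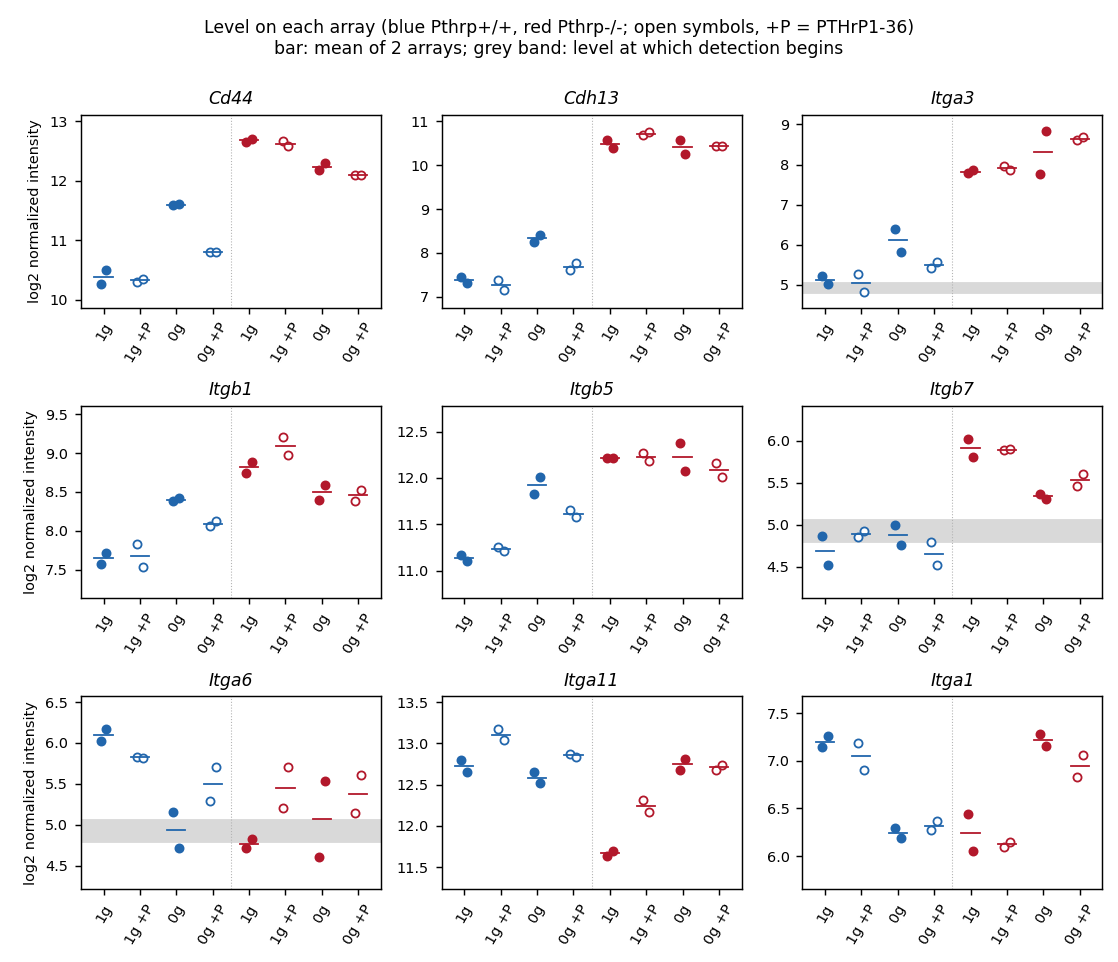
Log2 normalized intensity (y axis) of 9 members on each of the 16 arrays, by gravity and treatment (x axis, +P for PTHrP1-36), with bars at the mean of 2 arrays and a grey band at the level where detection begins, 4.79 to 5.06. Cdh13 lay at 10.26 to 10.75 on all Pthrp-/- arrays and at 7.15 to 8.42 on all Pthrp+/+ arrays.

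Cdh13 encodes T-cadherin, a cadherin that is held in the membrane by a lipid anchor and has no part inside the cell. On untreated 1g arrays it read 10.57 and 10.40 in Pthrp-/- and 7.45 and 7.32 in Pthrp+/+ TOs. This was 8.56-fold higher without Pthrp (log2 3.10, SE 0.13, adjusted p = 2.224e-10), the largest difference among the members, and the second Cdh13 probe gave a log2 difference of 2.75. The genotypes also kept apart without overlap at 0g and with treatment, with log2 differences of 2.09, 3.44 and 2.76.

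Itga3 encodes the alpha-3 subunit of laminin receptors. It read 7.78 and 7.87 in untreated Pthrp-/- TOs at 1g and 5.22 and 5.03, close to where detection begins, in Pthrp+/+ TOs. The difference was 6.50-fold (log2 2.70, SE 0.27, adjusted p = 2.108e-06). Every Pthrp-/- array was above every Pthrp+/+ array, the mean over the 4 pairs of conditions being log2 2.73.

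Cd44 is the cell-surface receptor for hyaluronan, a sugar chain of the matrix. Its probe read 12.66 and 12.71 in Pthrp-/- TOs and 10.27 and 10.51 in Pthrp+/+ TOs at 1g without treatment, a 4.90-fold difference (log2 2.29, SE 0.10, adjusted p = 3.99e-10). It was smaller at 0g, with 12.18 and 12.30 against 11.59 and 11.61 (log2 0.64, SE 0.10, adjusted p = 0.0003143). Cd44 has 6 probes, of which 4 were tested: the other 3 were dim. Of these, 2 were not detected in untreated Pthrp+/+ TOs at 1g and were higher in Pthrp-/- TOs by at least 3.21-fold and at least 1.135-fold, and the last, at the limit of detection, had a log2 difference of 0.29 that was not called (adjusted p = 0.1002).

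3 of the 4 tested integrin beta subunits were also higher without Pthrp. Itgb1, the partner of most alpha subunits for collagen, laminin and fibronectin, read 8.74 and 8.89 in Pthrp-/- and 7.57 and 7.72 in Pthrp+/+ TOs at 1g (2.25-fold, log2 1.17, SE 0.13, adjusted p = 5.498e-06), and its second probe gave 0.70. At 0g its untreated values of 8.40 and 8.59 against 8.38 and 8.42 overlapped.

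Itgb5, which pairs with the alpha-v subunit to bind vitronectin, read 12.21 on both Pthrp-/- arrays and 11.17 and 11.10 on the Pthrp+/+ arrays (2.11-fold, log2 1.08, SE 0.12, adjusted p = 4.164e-06). Itgb7, known from lymphocytes that home to the gut, was dim: it read 6.02 and 5.81 in Pthrp-/- TOs, and 4.86 and 4.52 in Pthrp+/+ TOs, where it was detected on 1 of 2 arrays (log2 1.22, SE 0.14, adjusted p = 7.008e-06). Itgb3, whose product pairs with alpha-v in the vitronectin receptor of osteoclasts, had a log2 difference of -0.02 and was at the limit of detection. In the mean over the 4 pairs of conditions, Itgb1 (log2 0.76), Itgb5 (0.71) and Itgb7 (0.89) were called higher, none by over 2-fold.

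The alpha subunits of collagen receptors differed the other way. Itga11, the subunit of the main receptor for fibrillar collagen on mesenchymal cells, read 11.63 and 11.70 in untreated Pthrp-/- TOs at 1g and 12.80 and 12.65 in Pthrp+/+ TOs (2.08-fold lower, log2 -1.06, SE 0.11, adjusted p = 1.846e-06), and all 3 of its probes were lower. These 2 arrays were the lowest of all, and the 12 arrays other than Pthrp-/- at 1g lay between 12.52 and 13.17. With the Pthrp-/- arrays labelled 0g in place of those labelled 1g, the log2 difference of Itga11 was 0.025, so it depends on these gravity labels. In the mean over the 4 pairs of conditions it was -0.475 (SE 0.05, adjusted p = 3.117e-06), a value that an exchange of these labels cannot alter. Between arrays of the same gravity label Itga11 was also called lower at 1g with treatment (log2 -0.859). It was not called at 0g, at 0.164 untreated and -0.149 treated. Itga1, singled out after its values were seen, read 6.44 and 6.05 against 7.15 and 7.26 at 1g (log2 -0.96, SE 0.14, adjusted p = 7.951e-05) but 7.28 and 7.16 against 6.29 and 6.19 at 0g (log2 0.98, SE 0.14, adjusted p = 0.0001389). Its genotype difference thus changed sign with the gravity label, and its mean over the 4 pairs was -0.07 (adjusted p = 0.4049). Against the Pthrp-/- arrays labelled 0g it was 0.019.

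Itga6, the other laminin receptor subunit with a large change, fell. It read 6.02 and 6.17 in untreated Pthrp+/+ TOs at 1g and 4.71 and 4.82 in Pthrp-/- TOs, where it was not detected on either array. The fold is therefore a bound, at least 2.17-fold lower, taken against the level at which detection begins on those arrays (adjusted p = 0.001128). In treated cells at 1g the values of 5.20 and 5.71 against 5.83 and 5.82 gave a log2 difference of -0.37 that was not called (adjusted p = 0.2866). Itga6 had a log2 difference of -1.02 against the Pthrp-/- arrays labelled 0g and of -0.42 in the mean over the 4 pairs (adjusted p = 0.0149). Itga7, the laminin receptor subunit best known from muscle, was not detected on any Pthrp+/+ array and was at least 1.25-fold higher in Pthrp-/- TOs at 1g, where 1 of 2 arrays detected it (adjusted p = 0.01594). The fibronectin receptor subunit Itga5 (log2 -0.43) and Itgav (0.07) did not pass the test.

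Among the proteins inside the cell the differences were smaller. Of 8 genes for integrin activation and linkage, Lims1 (PINCH-1, log2 0.54) and Parva (parvin, 0.50) rose and Ilk (integrin-linked kinase, -0.61) fell. The second Ilk probe had -0.33 and was not called, and Lims1 lay at the limit of detection. The brighter Lims2 (PINCH-2) was not called in untreated cells at 1g and did not rise. Its untreated values at 1g were 9.78 and 9.73 in Pthrp-/- and 9.99 and 9.85 in Pthrp+/+ TOs. With treatment at 1g Lims2 read 9.37 and 9.50 in Pthrp-/- against 10.07 and 10.09 in Pthrp+/+ TOs, and was called lower (log2 -0.651). Talin (Tln1), kindlin-2 (Fermt2), vinculin (Vcl) and paxillin (Pxn) had log2 differences of -0.21 to 0.11 that were not called. On the actin side, the cross-linkers Actn4 (0.79) and Actn1 (0.48) rose and Zyx (zyxin, which is recruited to adhesions under tension, -0.62) fell. With the Pthrp-/- arrays labelled 0g in place of those labelled 1g, Ilk (0.01), Lims1 (0.036) and Zyx (-0.21) were not called, while Parva (0.61), Actn4 (1.14) and Actn1 (0.64) were. In untreated cells at 0g the mean levels in Pthrp-/- and Pthrp+/+ TOs were 11.19 and 11.12 for Ilk, 4.89 and 4.845 for Lims1 and 13.76 and 14.06 for Zyx. With treatment at 0g they were 11.02 and 10.99, 4.759 and 4.765, and 13.64 and 14.05. For Ilk and Lims1 the genotypes thus lay apart at 1g only. Averaged over gravity and treatment, a contrast that an exchange of the Pthrp-/- gravity labels would not alter, 12 members were higher (all genes: 39.7%) and 6 were lower (all genes: 26.1%) in Pthrp-/- TOs, and Ilk (-0.22), Lims1 (0.25) and Zyx (-0.45) were among those called. Lims2 was called lower in that mean too. Cdh13, Itga3 and Cd44 were the 3 that were more than 2-fold higher (all genes: 3.78%) and 0 were more than 2-fold lower (all genes: 7.64%). Cdh11 was lower by 0.50 on the log2 scale (adjusted p = 0.001582) in that mean, and Cdh2 did not pass (log2 0.13).

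The genotype differences were set beside those of treated TOs at 1g, which share no array with them. All 16 members called without treatment had the same sign with treatment, and 13 were called again. The treated comparison called 11 members higher (all genes: 28.4%) and 6 lower (all genes: 22.4%). Of all genes called without treatment, 95.5% had the same sign and 76.6% were called again. Macrophage markers differed between the same arrays, by the sums given above. The summed intensity of 10 hypoxia-induced genes was 12040 to 12210 in untreated Pthrp-/- and 27340 to 30610 in untreated Pthrp+/+ TOs at 1g. The part of either in the member differences was not tested.

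To show the DNA beside which these genes start, the promoters of 5 members over 2-fold apart between genotypes follow, from RefSeq on GRCm38.p6, each from 250 bases before to 50 bases after the start. They are Cd44 at chr2:102901616-102901915 (minus strand), the first of 2 Itga3 starts at chr11:95076665-95076964 (minus strand), Itgb1 at chr8:128685404-128685703 (plus strand), Itgb5 at chr16:33829415-33829714 (plus strand) and Itga11 at chr9:62677605-62677904 (plus strand). Capitals mark matches on either strand to the GC box GGGCGG, present in 35.7% of 32851 promoters of the table, and to the TEAD motif GGAATG, the letters read by the partners of the tension-responsive factor YAP, present in 14.7%; no matches overlap.
Cd44 promoter: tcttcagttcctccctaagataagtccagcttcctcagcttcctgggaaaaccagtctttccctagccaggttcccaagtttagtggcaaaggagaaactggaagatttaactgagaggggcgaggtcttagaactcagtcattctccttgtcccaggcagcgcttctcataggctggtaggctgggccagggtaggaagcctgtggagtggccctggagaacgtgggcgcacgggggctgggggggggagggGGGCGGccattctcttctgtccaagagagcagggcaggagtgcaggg
Itga3 promoter: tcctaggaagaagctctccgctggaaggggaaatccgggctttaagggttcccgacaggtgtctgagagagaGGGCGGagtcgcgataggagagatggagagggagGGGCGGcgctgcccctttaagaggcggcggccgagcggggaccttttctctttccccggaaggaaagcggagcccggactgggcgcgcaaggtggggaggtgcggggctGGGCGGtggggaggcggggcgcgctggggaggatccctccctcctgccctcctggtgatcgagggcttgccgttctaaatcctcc
Itgb1 promoter: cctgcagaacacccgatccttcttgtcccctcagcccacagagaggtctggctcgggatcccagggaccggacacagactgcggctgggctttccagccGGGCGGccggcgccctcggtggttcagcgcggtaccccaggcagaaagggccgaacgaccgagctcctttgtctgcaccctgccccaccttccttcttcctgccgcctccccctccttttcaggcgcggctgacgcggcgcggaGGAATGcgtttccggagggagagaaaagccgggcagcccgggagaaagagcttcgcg
Itgb5 promoter: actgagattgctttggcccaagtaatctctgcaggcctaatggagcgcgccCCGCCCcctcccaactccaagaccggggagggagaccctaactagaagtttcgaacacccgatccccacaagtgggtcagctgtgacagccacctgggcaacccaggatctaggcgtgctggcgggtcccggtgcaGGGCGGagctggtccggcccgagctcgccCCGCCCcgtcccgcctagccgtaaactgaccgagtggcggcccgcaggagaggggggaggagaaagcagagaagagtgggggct
Itga11 promoter: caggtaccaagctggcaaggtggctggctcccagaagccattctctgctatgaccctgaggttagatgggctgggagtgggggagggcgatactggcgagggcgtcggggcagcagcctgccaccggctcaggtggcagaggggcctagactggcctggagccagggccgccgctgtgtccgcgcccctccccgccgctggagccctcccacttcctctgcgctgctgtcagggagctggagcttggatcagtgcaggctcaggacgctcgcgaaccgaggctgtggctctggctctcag

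The windows of Cd44, Itga3, Itgb1 and Itgb5 each had 1 to 3 GC boxes. That of Itga11, which was lower, and that of Itgb7, a member over 2-fold higher whose window is not printed, both had 0, and among these 5 windows the TEAD letters stood in that of Itgb1 only, 7 bases before the start. The cAMP response element TGACGTCA, found in 1.79% of all promoters, was in 0 of the 38 member promoters, which cover 31 members. The AP-1 letters TGANTCA, in 7.81% of all promoters, were in 4 of the 38, those of Actn4, Itga9, Zyx and the second start of Itga3. Of the same 38, the GC box was in 23 and the TEAD letters in 8. Those with a GC box included Itgav, Fermt2 and Vcl, which were not called between genotypes in untreated TOs at 1g. Such matches describe letters, not binding.

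**Figure D2:**
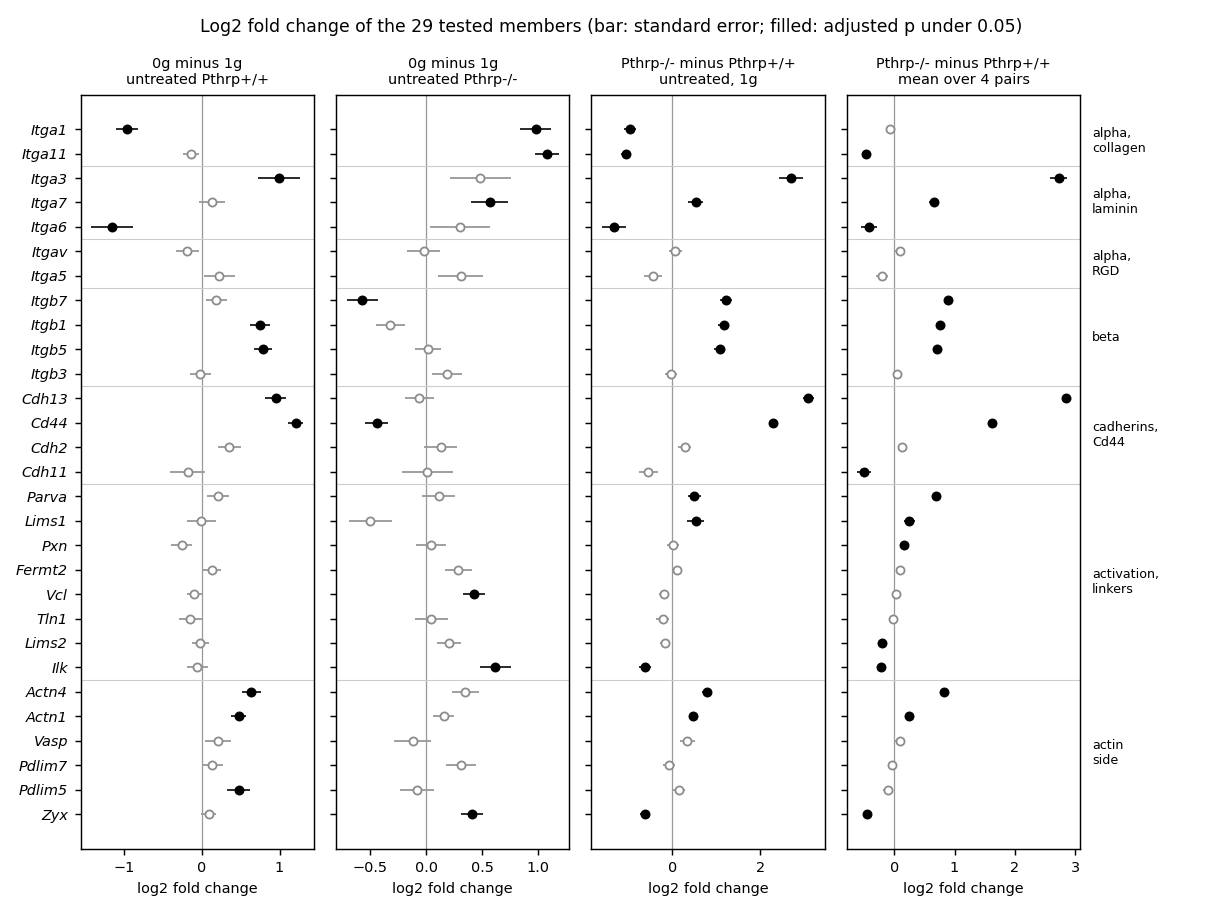
Log2 fold change (x axis, bars 1 standard error) of the 29 tested members by role (y axis), for 0g against 1g in each genotype and for Pthrp-/- against Pthrp+/+ at 1g and as a mean over 4 pairs of conditions; filled symbols had an adjusted p under 0.05, and the scales of the panels differ. Itga1 and Itga11 lie left of 0 in the 1g genotype panel and right of 0 in the Pthrp-/- gravity panel, which share the Pthrp-/- 1g arrays.

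In untreated Pthrp+/+ TOs, 6 days at 0g went with more RNA for Cd44, the beta-1 and beta-5 subunits and alpha-actinin and less for the alpha-1 and alpha-6 subunits. At 0g 8 of 29 members were higher (27.6%, all genes: 13%) and 2 were lower (6.9%, all genes: 13.4%), and the median log2 difference was 0.13 over the members and 0.04 over all genes. More than 2-fold apart at an unadjusted p under 0.05 were 1 higher member, Cd44 (all genes: 1.72%), and 1 lower member, Itga6 (all genes: 3.98%). With cyclic loess normalization the share of higher genes among all calls was 38.3% in place of 49.2%. The untreated Pthrp+/+ 1g arrays used here also serve the genotype comparison at 1g, so a chance value on them moves both the same way. Cd44 rose from 10.27 and 10.51 at 1g to 11.59 and 11.61 at 0g (2.31-fold, log2 1.21, SE 0.10, adjusted p = 1.782e-06). The next Cd44 probe, not detected at 1g, was at least 1.58-fold higher at 0g. The other 2 tested Cd44 probes were at the limit of detection or not detected in either condition, and were not called.

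Itgb5 rose from 11.17 and 11.10 to 11.83 and 12.01 (1.72-fold, adjusted p = 0.0002364). Itgb1 rose from 7.57 and 7.72 to 8.38 and 8.42 (1.68-fold, adjusted p = 0.0007945), although its second probe, at log2 0.34, was not called. Cdh13 rose from 7.45 and 7.32 to 8.25 and 8.42 (1.93-fold, adjusted p = 0.0001278). The arrays of the 2 conditions did not overlap for any of these 3 genes.

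Itga3 read 6.40 and 5.83 at 0g against 5.22 and 5.03 at 1g (log2 0.99, SE 0.27, adjusted p = 0.01718). Its call was lost from the authors' normalized values (log2 0.15) and without untreated Pthrp+/+ 0g replicate 1 (log2 0.71, adjusted p = 0.156) or either 1g replicate. The actin-side genes Actn4 (log2 0.64), Actn1 (0.47) and Pdlim5 (0.47), the last a PDZ and LIM protein of the cytoskeleton, also rose. None of the 8 activation and linker genes was called. At an unadjusted p under 0.05 were 11 of all 29 members (all genes: 3780 of 10438).

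Itga1 fell from 7.15 and 7.26 to 6.29 and 6.19 (1.95-fold, adjusted p = 0.0002225). Itga6 fell from 6.02 and 6.17 to 5.16 and 4.71, where 1 of 2 arrays detected it (2.23-fold, adjusted p = 0.006648). Without untreated 0g replicate 2 or 1g replicate 2 the Itga6 call was lost, at log2 -0.94 and -1.08. The other collagen receptor subunit, Itga11, had a log2 difference of -0.14 that was not called.

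Treated Pthrp+/+ TOs at 0g and 1g share no array with the untreated ones. All 10 members called without treatment had the same sign with treatment, 2 of them (Cd44 at log2 0.47 and Itga1 at -0.73) called, where 93.5% of all called genes had the same sign and 26.6% were called again. In treated cells 1 member was higher at 0g (all genes: 3.4%) and 2 were lower (all genes: 4.47%). Between 1g and 0g the macrophage sum fell as given above, and the summed intensity of 10 hypoxia-induced genes went from 27340 to 30610 at 1g to 11300 to 14010 at 0g; the part of either in the member differences was not tested.

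Peptide treatment of Pthrp+/+ TOs at 0g went with less RNA for Cd44, Cdh13 and Actn4. In treated against untreated Pthrp+/+ TOs at 0g, 3 of 29 members were lower (10.3%, all genes: 3.05%) and 0 were higher (all genes: 4.98%). At an unadjusted p under 0.05 were 9 members (all genes: 2370 of 10438). The median log2 difference was -0.13 over the members and -0.01 over all genes. At the fold thresholds of 1.5 and 0.65 used for the peptide, with an unadjusted p under 0.05, 3 were lower (all genes: 1.25%) and 0 higher (all genes: 3.54%). A trend with robust estimation or the authors' normalized values called 1 member higher, Itga11. This comparison shares its untreated 0g arrays with that of 0g against 1g, so a chance high value on them raises one and lowers the other.

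Cd44 read 10.80 and 10.81 with PTHrP1-36 and 11.59 and 11.61 without (1.73-fold lower, log2 -0.79, SE 0.10, adjusted p = 0.0005166). Cdh13 read 7.61 and 7.77 against 8.25 and 8.42 (1.57-fold lower, adjusted p = 0.009376), and Actn4 read 10.81 and 10.82 against 11.49 and 11.17 (1.43-fold lower, adjusted p = 0.02078). Treated values at 0g lay between the untreated 1g and 0g values for all 3 genes. Without treated 0g replicate 1 only 1 of the 3 calls was made, and Cdh13 had a log2 difference of -0.57 (adjusted p = 0.1021).

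**Figure D3:**
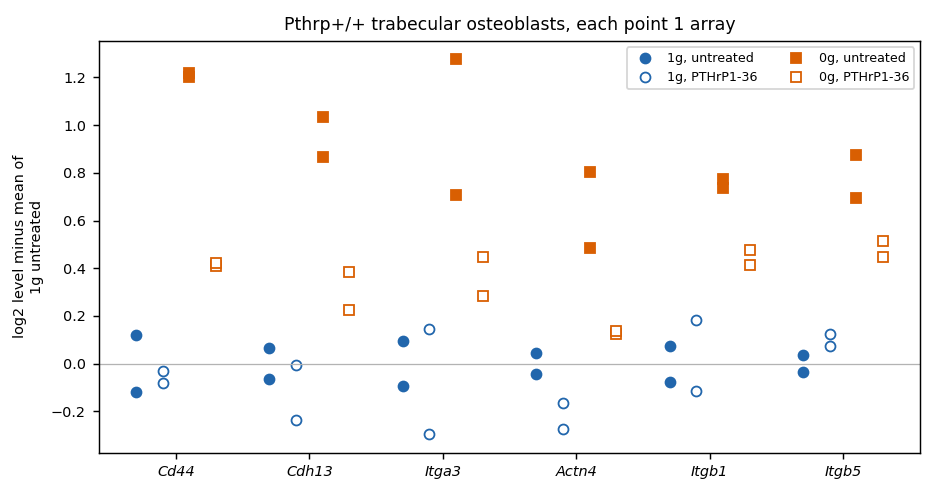
Log2 level relative to the mean of untreated 1g arrays (y axis) of the 6 members with the largest rise at 0g (x axis), 1 symbol per array in Pthrp+/+ TOs. Cd44 at 0g stood at 11.59 and 11.61 untreated and at 10.80 and 10.81 with peptide, against 10.27 to 10.51 at 1g.

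At 1g limma called 0 of 29 members with the peptide in Pthrp+/+ TOs (all genes: 0.192% higher and 0.527% lower). At an unadjusted p under 0.05 were 2 members (all genes: 1121 of 10438), and Cd44 had a log2 difference of -0.05. The treatment effect on Cd44 differed between 0g and 1g (log2 -0.74, SE 0.14, adjusted p = 0.01604), the only 1 of 29 members for which this interaction was called (all genes: 2.28% upward and 0.891% downward). In Pthrp-/- TOs the peptide was followed by more Itga11 at 1g, from 11.63 and 11.70 to 12.31 and 12.17 (log2 0.58, SE 0.11, adjusted p = 0.01062), and by less Itga7 (log2 -0.76) and Cdh2 (-0.69) at 0g. These were the 3 calls of the peptide in Pthrp-/- TOs (all genes: 1.68% higher and 1.57% lower at 1g, and 1.11% higher and 1.03% lower at 0g). Macrophage markers on Pthrp+/+ 0g arrays summed to 73900 to 75980 with peptide and 58160 to 59150 without, and the part of that in the falls was not tested.

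In Pthrp-/- TOs the arrays labelled 0g and 1g differed in 8 members, of which Itga1 and Cd44 were also called in Pthrp+/+ TOs, with the opposite sign. Of all 2759 genes called in untreated Pthrp+/+ TOs, 477 were called with the opposite sign in Pthrp-/- TOs and 81 with the same sign. At 0g 6 of 29 members were higher (20.7%, all genes: 5.26%) and 2 were lower (6.9%, all genes: 4.05%). Itga11 was the 1 member more than 2-fold higher at an unadjusted p under 0.05 (all genes: 0.833%), and 0 were more than 2-fold lower (all genes: 0.527%). Itga11 rose from 11.63 and 11.70 to 12.68 and 12.81 (2.12-fold, log2 1.08, SE 0.11, adjusted p = 3.402e-05). Itga1 rose from 6.44 and 6.05 to 7.28 and 7.16 (1.97-fold, adjusted p = 0.0007421). Both collagen receptor subunits were thus higher on the arrays labelled 0g, and both were so with treatment too, at log2 0.47 and 0.82.

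Ilk (log2 0.62), Vcl (0.43), Zyx (0.41) and Itga7 (0.57) were the other 4 that rose, and Cd44 (-0.44) and Itgb7 (-0.57) fell. The count of higher members was 2 without untreated Pthrp-/- 1g replicate 2, that of lower members was 0 without untreated Pthrp-/- 0g replicate 1 or 1g replicate 1, and a fit to these 4 arrays alone called 1 higher and 0 lower. The Cd44 call was lost without untreated Pthrp-/- 0g replicate 1 or either 1g replicate (adjusted p of 0.06291 to 0.1174), and that of Itgb7 without either 0g replicate or 1g replicate 1 (0.0523 to 0.1452). Of the 8 called, 7 had the same sign in treated Pthrp-/- TOs, the exception being Itga7 (log2 -0.30, not called). That share, 87.5%, was near the 87.8% of all called genes. In treated Pthrp-/- TOs 3 members were higher (all genes: 5.2%) and 3 were lower (all genes: 3.57%).

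**Figure D4:**
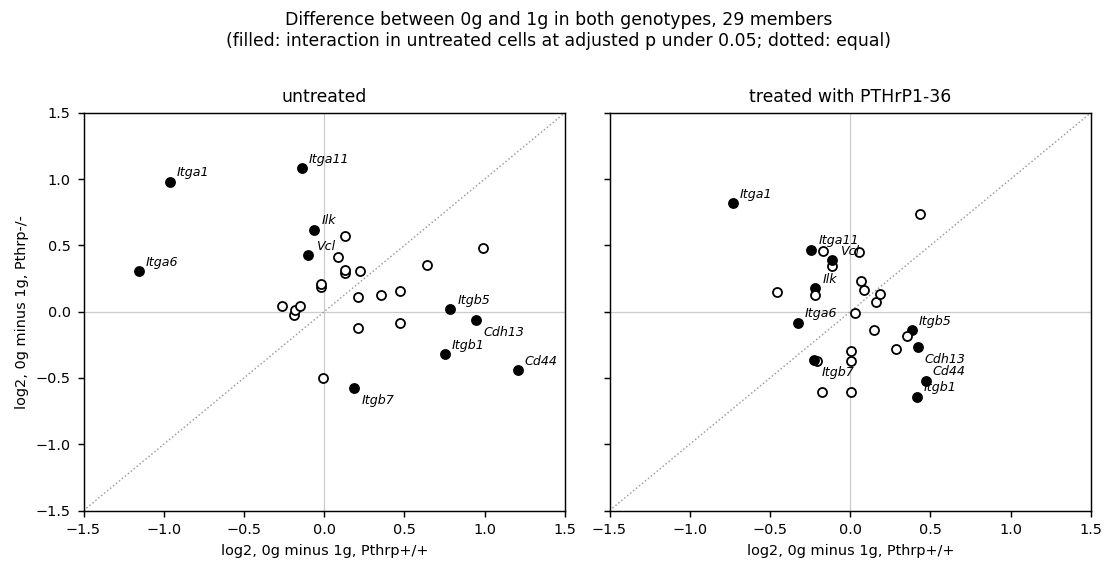
Log2 difference between 0g and 1g in Pthrp+/+ (x axis) and in Pthrp-/- TOs (y axis) of the 29 members, untreated on the left and treated on the right, with members filled where the interaction in untreated cells was called and a dotted line at equal effects. Itga1 lay at -0.96 and 0.98 without treatment and at -0.73 and 0.82 with it.

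The gravity effect itself differed between genotypes for 10 of the 29 members, 5 upward and 5 downward in Pthrp-/- relative to Pthrp+/+ (17.2% each, all genes: 12.9% each), a share near that of all genes. At more than 2-fold with an unadjusted p under 0.05 there were 3 upward (all genes: 6.19%) and 3 downward (all genes: 3.86%). Itga1 (log2 1.94), Itga6 (1.46), Itga11 (1.22), Ilk (0.68) and Vcl (0.52) were relatively higher at 0g in Pthrp-/- TOs, and Cd44 (-1.65), Itgb1 (-1.07), Cdh13 (-1.01), Itgb5 (-0.76) and Itgb7 (-0.76) were relatively lower. Of the 10 members called at 0g in untreated Pthrp+/+ TOs, 6 had the opposite sign in Pthrp-/- TOs, where 68.6% of all called genes did. Without untreated Pthrp+/+ 0g replicate 2 or 1g replicate 2, 3 members in place of 5 were called upward. With the gravity labels of the Pthrp-/- arrays exchanged, the 1g genotype comparison called 12 members higher (all genes: 29.2%) and 1 lower (all genes: 20.8%), with Cdh13 at log2 3.04, Itga3 at 3.18 and Cd44 at 1.85.

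Other genes of the same structures were read from 4 lists. Of 39 other adhesion proteins, 19 were higher and 8 lower in Pthrp-/- TOs at 1g, 48.7% and 20.5% of the list beside 30.5% and 22% of all genes, and 8 were higher and 3 lower at 0g in Pthrp+/+ TOs, 20.5% and 7.69% beside 13% and 13.4%. Pdlim1, a PDZ and LIM protein of actin fibres, was higher by log2 2.04 without Pthrp and by 0.69 at 0g, and Fhl2, a LIM protein at focal adhesions, by 1.62 and 0.72. Both comparisons use the same untreated Pthrp+/+ 1g arrays, so a chance low value on them raises both. Itgbl1, a secreted relative of the beta subunits, was 5.00-fold higher in the mean over conditions, and Evl, which promotes actin growth at adhesions, was 5.18-fold lower at 1g.

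Of 5 other cadherins and catenins tested, 3 were higher and 1 was lower without Pthrp at 1g, again beside 30.5% and 22% of all genes. Ctnnal1 (alpha-catulin) was higher by log2 1.64, Ctnnb1 (beta-catenin) by 0.46 and Ctnna1 (alpha-E-catenin) by 0.36, while Cdh3 (P-cadherin) fell by 1.14 and, like Itga1 and Itga11, was higher on the Pthrp-/- arrays labelled 0g (log2 1.19). Of 17 matrix ligands of these receptors, 3 were higher (17.6%, all genes: 30.5%) and 8 lower (47.1%, all genes: 22%) without Pthrp at 1g. Col1a1, the main collagen of bone, fell by 1.53 on the log2 scale and Col3a1, a fibrillar collagen of soft tissue, fell by 2.22 on the log2 scale. Tnn (tenascin-W) was at least 4.45-fold lower and Ibsp, which carries an integrin-binding site, at least 2.50-fold lower, since neither was detected in untreated Pthrp-/- TOs at 1g.

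Adhesion genes of white blood cells went with the macrophage markers. Of 8 tested, 7 were lower (all genes: 22%) and 1 was higher (all genes: 30.5%) in Pthrp-/- TOs at 1g, and their summed intensity was 2373 to 2764 in untreated Pthrp+/+ TOs at 1g, 1282 to 1410 at 0g and 200.5 to 245.7 on the Pthrp-/- arrays. Lpxn (leupaxin) was at least 44.2-fold lower, Selplg (the selectin ligand PSGL-1) at least 15.4-fold and Fermt3 (kindlin-3, the kindlin of blood cells) at least 13.7-fold, and none of the 3 was detected in untreated Pthrp-/- TOs. Itgb2, the beta subunit of leukocyte integrins, fell by 1.17 on the log2 scale. Fermt2, the kindlin of other cells, had a difference of 0.11 that was not called.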

How the data were processed

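Total RNA of the 16 samples was hybridised by the authors' array service, and its signals were normalized by the authors in lumi, who used a random variance model for their own tests. The authors deposited 2 tables: linear intensities without normalization between arrays, which carry a p-value for detection per probe, and lumi-normalized values on a log2 scale. The main values started from the linear intensities, to which neqc of limma 3.58.1 (R 4.3.3, offset 16) applied background correction by detection p, quantile normalization and log2. Tests covered probes detected (p under 0.05) on 2 or more arrays. Where a gene had several such probes, the one with the highest mean stood for it. Symbols came from the platform annotation, updated by RefSeq; 23978 of 25697 probes had 1 symbol and 1719 had none.

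Means of the 8 conditions were fitted with lmFit and eBayes (8 residual degrees of freedom, prior 4.98), with Benjamini-Hochberg adjustment over all 15279 tested probes. A call was an adjusted p under 0.05. The study's fold thresholds, above 2 or its inverse, were applied beside it, with 1.5 and 0.65 for the peptide. A fold against a condition in which neither array detected the probe is a bound against the level where detection begins. The calculation was tested on simulated data. The number of arrays, 2 per condition, limits the precision.

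The members and gene lists were chosen with earlier results of these data known. By rule, values on every array are given for members called at over 2-fold in a main comparison, and up to 4 genes are named from each other list. Figures were drawn with matplotlib 3.10.9 and pandas 2.3.3 under Python 3.11.15. The viability experiments were not analysed here.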

Additional observations from a re-analysis of the deposited data

Results flagged for a closer look

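The effect of gravity differed between Pthrp+/+ and Pthrp-/- TOs, by the interaction term of limma in untreated cells, for 10 members. The log2 differences, Pthrp-/- minus Pthrp+/+, were 1.94 for Itga1, 1.46 for Itga6, 1.22 for Itga11, 0.68 for Ilk, 0.52 for Vcl, -0.76 for Itgb5, -0.76 for Itgb7, -1.01 for Cdh13, -1.07 for Itgb1 and -1.65 for Cd44. The adjusted p ran from 2.946e-06 (Cd44) to 0.02074 (Ilk). In the other lists, Fhl2 (-0.47), Pdlim1 (-0.64), Cdh3 (1.84), Ctnnal1 (-0.71), Itgb2 (1.00), Fermt3 (1.17), Lpxn (1.23), Selplg (0.70), Ibsp (1.53), Tnn (2.65), Col1a1 (1.34) and Col3a1 (1.66) differed in the same way. All of these values depend on which Pthrp-/- arrays were labelled 0g. Fermt3, Lpxn, Selplg and Ibsp were not detected on any untreated Pthrp-/- array.

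The effect of the peptide differed between 0g and 1g in Pthrp+/+ TOs for Cd44 (log2 -0.74), Fermt3 (0.96) and Ibsp (0.91). With 2 arrays per condition, no single array could be compared with the others of its condition.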

How the results depend on the processing

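Of the counts of called members under the alternatives, 23 moved by over 1.5 times and 127 did not. At the fold thresholds with unadjusted p, 1 was higher and 1 lower at 0g in Pthrp+/+ TOs, 1 and 0 at 0g in Pthrp-/- TOs, 6 and 2 without Pthrp at 1g, 3 and 0 in the mean genotype contrast, and 3 and 3 for the genotype by gravity interaction. A fit to only the conditions compared called 1 higher and 0 lower at 0g in Pthrp-/- TOs, 3 higher in the interaction and 1 lower with the peptide. In treated cells, 1 member was higher at 0g in Pthrp+/+ and 3 in Pthrp-/- TOs. Cyclic loess called 8 lower without Pthrp and 1 lower at 0g in Pthrp-/- TOs. The authors' values called 1 lower at 0g in Pthrp-/- TOs and 1 higher with the peptide, as did a trend with robust estimation for the peptide, and counting any probe gave 5 lower with the peptide. With the Pthrp-/- arrays labelled 0g in place of 1g, 1 member was lower. The cause was not tested; fewer arrays or a stricter threshold were used where named.

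Leaving out 1 array gave 6 to 9 higher and 1 to 3 lower at 0g in Pthrp+/+ TOs, 2 to 4 and 0 to 1 at 0g in Pthrp-/- TOs, 9 to 10 and 5 to 5 without Pthrp at 1g, 10 to 12 and 6 to 7 in the mean genotype contrast, 3 to 5 and 4 to 7 in the interaction, and 0 to 0 and 1 to 4 with the peptide. Among the members followed under every alternative, directions that turned were those of values not called, apart from Itga11 without Pthrp, which was 0.025 with the arrays labelled 0g. Itga1 and Ilk, also called lower without Pthrp, were 0.019 and 0.01 there. In untreated Pthrp-/- TOs at 0g, leaving out 1 array gave -0.15 to 0.76 for Itga6, -0.052 to 1.02 for Itga3, -0.22 to 0.094 for Cdh13 and -0.13 to 0.17 for Itgb5. Treated cells gave -0.084 for Itga6 and -0.14 for Itgb5 there and -0.23 for Itgb7 at 0g in Pthrp+/+ TOs.

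Replicate numbers are shared by all conditions, and 6 of 28 pairs of conditions had same-numbered deviations that correlated over 0.1 (median 0.024). The highest, 0.215, was between untreated Pthrp-/- TOs at 0g and 1g, and most pairs joined different genotypes. By the methods the untreated and treated 0g vessels turned on the same axis, and there the correlation was 0.077 in Pthrp+/+ and 0.027 in Pthrp-/- TOs. Whether a number marks a shared run is not stated, and a block was fitted only as an alternative. A replicate block over all arrays gave 8 higher and 2 lower at 0g in Pthrp+/+, 5 and 2 in Pthrp-/- TOs, 11 and 5 without Pthrp, 12 and 6 in the mean contrast, 5 and 5 in the interaction and 0 and 3 with the peptide. Within genotype it gave 6 lower without Pthrp and 7 in the mean contrast. Probes near the level of detection (Itga6, Itga7, Itgb7, Itgb3, Lims1, Tln1, and all but the brightest of Cd44) have compressed differences.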
